A study of Mus musculus with 10 samples.

Results

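Cytokine receptor genes were examined in LSK cells, the bone marrow fraction that lacks lineage markers and carries Sca1 and cKit. The set held 9 genes: Il6ra, Il6st, Csf3r, Csf2ra, Csf2rb, Csf1r, Ifngr1, Ifngr2 and Il2rg. Every probe to which the platform annotation gave one of these symbols alone was taken, which gave 20 of the 45281 probes on the array, for 8 of the 9 genes. Il2rg, the common gamma chain gene, was not analysed here because the annotation used names no probe for it. The genes were chosen with the LysM-KI minus control differences of these same arrays known. Those differences are therefore given as a description of the arrays and support no statement about the set.

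RNA was measured on 10 Illumina mouse arrays, 1 per mouse, from 5 control and 5 LysM-KI mice. LysMCre is given as the strain of both groups; in mice of that name Cre recombinase is expressed from the myeloid lysozyme locus Lyz2. All mice were 9 to 16 weeks old. The mutant group is called LysM-KI, its knocked-in allele is unnamed in the labels, and so is the share of LSK cells in which Cre had acted. In bulk RNA, fewer cells that carry a receptor and less receptor RNA per cell cannot be told apart.

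A cytokine receptor passes the presence of a secreted signal into the cell. Most of the receptors here have no enzyme of their own and lean on Janus kinases, which phosphorylate STAT transcription factors once the ligand has joined the chains. Il6ra binds interleukin-6 and pairs with Il6st (gp130), the signalling chain that a whole family of cytokines shares. Csf3r binds G-CSF, which drives neutrophil production, and Csf2ra with the common beta chain Csf2rb binds GM-CSF. Csf1r, the M-CSF receptor of monocytes and macrophages, is the exception, a receptor tyrosine kinase. Ifngr1 and Ifngr2 form the interferon gamma receptor, through which infection reaches stem and progenitor cells.

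A probe was called detected on an array where its detection p was under 0.05, and the 17245 probes with such a call on 5 or more of the 10 arrays entered the test. Levels are normalized log2 intensities after background correction and quantile normalization. Of the 20 receptor probes, 11 were kept, for 7 genes. For each gene the kept probe with the highest mean stood for the gene, and levels of different probes are not compared, since probes differ in how strongly they bind. Only 4 of the 20 probes were detected on all 10 arrays, 1 each of Il6ra, Csf3r, Ifngr1 and Ifngr2. Neither of the 2 Csf1r probes was kept. One was detected on 1 control and 3 LysM-KI arrays and the other on control replicate 3 alone. A member probe that is missing on many arrays may lie below what this array can resolve, and no absence of the transcript is implied.

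**Figure D1:**
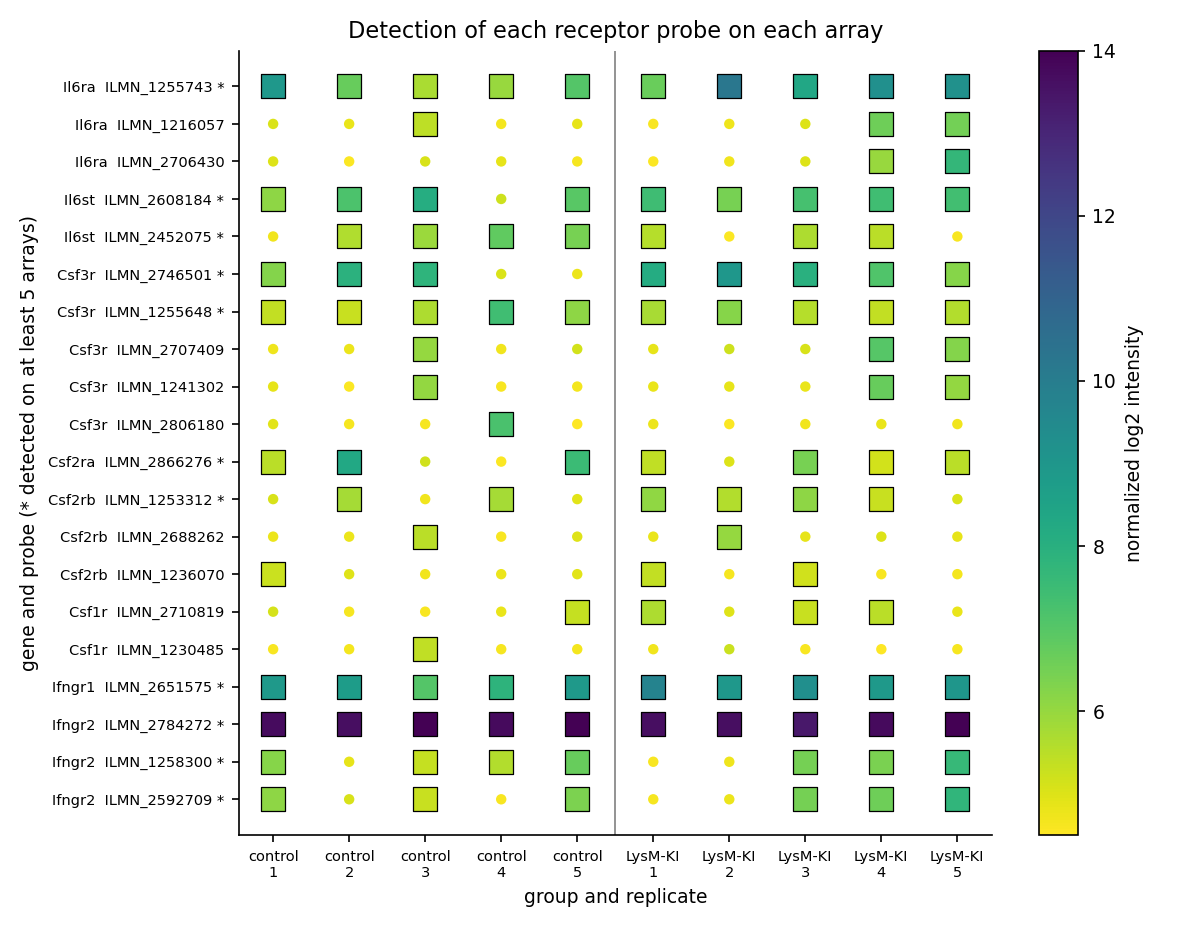
Detection of the 20 receptor probes on the 10 arrays. Rows are probes named by gene, columns are arrays by group and replicate, a square marks a detection p under 0.05 and a small dot its absence, and the colour gives the normalized log2 intensity; an asterisk marks the 11 probes kept. Only 4 rows are squares throughout.

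The arrays themselves differed. Control arrays detected 15234 to 17093 probes and LysM-KI arrays 16430 to 18801. Control replicate 4 had the fewest and stood apart on principal component 1 (22% of variance), and LysM-KI replicate 2 on component 2 (14.2%). Control replicate 4 and LysM-KI replicate 4 alone had high Xist, at 11.81 and 11.69 against at most 7.08 elsewhere. Kit was detected on all 10 arrays, while Ly6a, the gene of Sca1, was not analysed here because no probe was named for it. Of the 10 measured genes of the LSK gate list, 9 were detected on every array, and the mean level of the list ran from 8.20 to 8.98 in control and from 8.50 to 8.81 in LysM-KI cells.

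The receptors of the gp130 family are described first. Il6ra lies on chromosome 3 (chr3:89869324-89913196, GRCm38.p6). Its representative probe, ILMN_1255743, was detected on all 10 arrays. In control replicates 1 to 5 its level was 8.92, 6.69, 5.69, 5.97 and 7.04. In LysM-KI replicates 1 to 5 it was 6.66, 10.22, 8.35, 9.25 and 9.24. LysM-KI replicates 2, 4 and 5 lay above every control array, replicate 3 lay below control replicate 1, and LysM-KI replicate 1 lay within the lower control values, so the groups overlapped. The raw intensities behind these levels ran from 135.2 to 648.3 in control and from 207 to 1438.9 in LysM-KI arrays. The means were 6.86 ± 1.27 (SD, n = 5) in control and 8.74 ± 1.34 in LysM-KI cells, a log2 fold change of 1.88 (SE 0.73, 95% interval from 0.28 to 3.48), or 3.68-fold.

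The 2 other Il6ra probes gave a narrower picture. ILMN_1216057 was detected on control replicate 3, at 5.46, and on LysM-KI replicates 4 and 5, at 6.61 and 6.51. ILMN_2706430 was detected on no control array and on LysM-KI replicates 4 and 5 only, at 5.98 and 7.72. Neither probe was detected on LysM-KI replicate 2, the array with the highest level on the representative probe, or on control replicate 1, the highest control. On LysM-KI replicates 1, 2 and 3, ILMN_2706430 was not detected, at 4.57, 4.72 and 4.99, within the control range of 4.57 to 5.06. With its control arrays raised to the lowest detected signal, its LysM-KI mean exceeded control 1.27-fold. This is no lower bound, since the LysM-KI values that were not detected were left as measured. Neither was kept for testing.

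Il6st, the gp130 gene, lies on chromosome 13 (chr13:112464070-112506860). Its representative probe, ILMN_2608184, gave 6.12, 7.20, 8.12, 5.21 and 6.95 in control replicates 1 to 5, and was not detected on replicate 4. In LysM-KI replicates 1 to 5 it gave 7.46, 6.44, 7.30, 7.43 and 7.37. The LysM-KI values lay inside the control range, which was set by control replicate 4 at the bottom and replicate 3 at the top. The log2 fold change was 0.48 (SE 0.49), and without control replicate 4 it was 0.10. The second kept probe, ILMN_2452075, went the other way, from 5.90 ± 0.82 (SD, n = 5) in control to 5.17 ± 0.55 in LysM-KI cells, a log2 fold change of -0.73 (SE 0.42). Its highest level, 6.83, was on control replicate 4, the array on which the first probe was not detected.

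**Figure D2:**
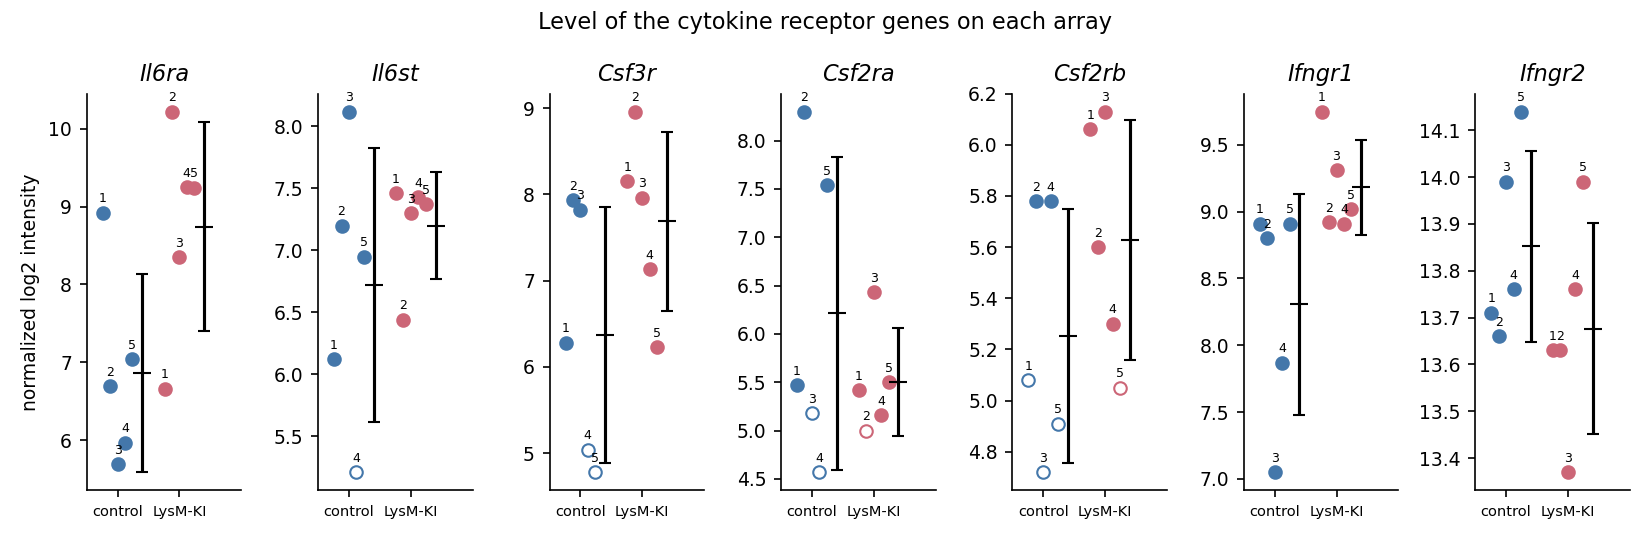
Normalized log2 intensity (vertical axes, a separate scale for each gene) of the representative probe of 7 receptor genes on 5 control and 5 LysM-KI arrays. Points are arrays numbered by replicate, open points were not detected, and the bar beside each group is the mean ± SD. Every gene has overlapping groups, and for Ifngr1 the lowest LysM-KI and the highest control array both round to 8.91.

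The receptors of colony-stimulating factors came next. Csf3r (chr4:126023441-126044975) had 5 probes, more than any other gene of the set. The representative, ILMN_2746501, gave 6.28, 7.93, 7.82, 5.04 and 4.78 in control replicates 1 to 5, of which replicates 4 and 5 were not detected. It gave 8.15, 8.96, 7.96, 7.13 and 6.23 in LysM-KI replicates 1 to 5, all detected. LysM-KI replicates 1, 2 and 3 lay above every control array, and replicate 5 lay below 3 of the 5 control arrays. The log2 fold change was 1.31 (SE 0.71, 95% interval from -0.26 to 2.89), and it rests partly on control values not told apart from background.

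The other Csf3r probes did not repeat this order of arrays, and their group means went both ways. ILMN_1255648, detected on all 10 arrays, had a mean of 5.97 ± 0.87 (SD, n = 5) in control and 5.71 ± 0.33 in LysM-KI cells, with a log2 fold change of -0.26 (SE 0.40). Its highest value, 7.42, came from control replicate 4, where the representative probe was not detected. ILMN_2806180 was detected on that array alone, at 7.23. ILMN_2707409 and ILMN_1241302 were detected on the same 3 arrays, control replicate 3 (6.01 and 6.04) and LysM-KI replicates 4 (7.02 and 6.70) and 5 (6.25 and 6.05). Their means were 5.08 and 4.94 in control and 5.68 and 5.45 in LysM-KI cells, with most values not detected. LysM-KI replicates 4 and 5 are also the 2 LysM-KI arrays on which the dim Il6ra probes were detected.

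Csf2ra, the ligand-binding chain of the GM-CSF receptor (chr19:61217191-61228461), had 1 probe. It gave 5.47, 8.30, 5.18, 4.57 and 7.54 in control and 5.42, 5.00, 6.43, 5.16 and 5.50 in LysM-KI replicates 1 to 5. It was not detected on control replicates 3 and 4 or LysM-KI replicate 2. Control replicates 2 and 5 lay above every LysM-KI array, and control replicate 4 lay below all of them. The log2 fold change was -0.71 (SE 0.67), and without control replicate 2 it was -0.19.

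Csf2rb, the beta chain that GM-CSF, interleukin-3 and interleukin-5 receptors share (chr15:78325800-78351001), had 3 dim probes. Its kept probe, ILMN_1253312, was detected on 2 control and 4 LysM-KI arrays, with means of 5.25 ± 0.50 and 5.63 ± 0.47 (SD, n = 5) and a log2 fold change of 0.37 (SE 0.32). LysM-KI replicates 1 and 3, at 6.06 and 6.13, were above the highest control level of 5.78, and replicates 2, 4 and 5, at 5.60, 5.30 and 5.05, were below it. The 2 other probes were detected on 2 and 3 arrays. Csf2rb2, a close mouse paralog of Csf2rb, had 1 probe, detected on 2 arrays, and signal shared between the paralogs was not tested. The Csf1r probe detected on more arrays, ILMN_2710819, had means of 4.90 ± 0.32 in control and 5.25 ± 0.35 in LysM-KI cells (SD, n = 5), with 6 of its 10 values not detected.

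The upstream sequences of Il6ra, Csf3r and Csf2ra are shown because, of the 7 genes whose windows were examined, these hold GAGGAA. It is the core bound by PU.1, a transcription factor of myeloid cells known to act on the promoters of CSF receptor genes. Each is the 250 bases before the transcript start in RefSeq (GRCm38.p6), printed 5′ to 3′ on the strand of the gene, with GAGGAA or its reverse complement in capitals. The windows are chr3:89913197-89913446 on the minus strand, chr4:126024409-126024658 on the plus strand and chr19:61228419-61228668 on the minus strand. The Csf3r window lies inside the annotated span of the gene, whose first base is farther upstream. The Csf2ra window overlaps the annotated span of its gene in part, and its GAGGAA matches lie in that overlap.
Il6ra: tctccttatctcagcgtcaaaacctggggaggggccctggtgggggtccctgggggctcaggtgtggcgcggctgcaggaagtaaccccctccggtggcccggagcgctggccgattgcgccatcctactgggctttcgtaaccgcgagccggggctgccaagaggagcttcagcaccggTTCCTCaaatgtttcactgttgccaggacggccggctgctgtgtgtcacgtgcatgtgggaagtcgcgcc
Csf3r: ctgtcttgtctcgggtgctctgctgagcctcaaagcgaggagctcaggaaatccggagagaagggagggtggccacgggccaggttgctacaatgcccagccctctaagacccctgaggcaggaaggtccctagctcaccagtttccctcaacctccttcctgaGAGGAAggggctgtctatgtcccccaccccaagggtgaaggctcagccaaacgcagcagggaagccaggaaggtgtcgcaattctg
Csf2ra: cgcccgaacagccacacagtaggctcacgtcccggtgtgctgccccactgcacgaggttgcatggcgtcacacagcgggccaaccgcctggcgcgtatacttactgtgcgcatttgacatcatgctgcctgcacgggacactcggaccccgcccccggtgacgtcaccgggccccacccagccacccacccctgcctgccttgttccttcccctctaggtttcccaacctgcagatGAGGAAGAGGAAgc
In Il6ra the core lies 70 to 65 bases before the start on the opposite strand, and in Csf3r 86 to 81 bases before it. Csf2ra holds 2 cores, 14 to 9 and 8 to 3 bases before the start.

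Windows were examined for 7 of the 9 genes. Csf1r, which lies on chromosome 18, was left out of the search, and the RefSeq windows set beside the members were not restricted in this way. Csf2rb had no window in the sources used. Neither gene is in these counts, which could differ with them. GAGGAA was searched on both strands and found in 3 of the 7, against 23.3% of 32851 RefSeq windows of the same length. The RUNX motif TGTGGT was in 1 of the 7 (Il2rg) against 14%. The C/EBP motif TTGCNNAA and the STAT motif TTCNNNGAA were in 0 of the 7, against 9.56% and 7.02%. These matches describe letters and do not show binding. Spi1, the gene of PU.1, had 1 probe, which was detected on 1 array.

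The 2 chains of the interferon gamma receptor differed in their readings. Ifngr1, the ligand-binding chain (chr10:19591949-19610229), had 1 probe, detected on all 10 arrays. It gave 8.91, 8.80, 7.05, 7.87 and 8.91 in control and 9.75, 8.92, 9.31, 8.91 and 9.02 in LysM-KI replicates 1 to 5. Control replicates 3 and 4 were the low arrays, and the other 3 control arrays lay just under or level with the lowest LysM-KI arrays. The means were 8.31 ± 0.83 (SD, n = 5) and 9.18 ± 0.36, a log2 fold change of 0.87 (SE 0.39, 95% interval from 0.02 to 1.73), and without control replicate 3 it was 0.56.

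Ifngr2, the chain that recruits Jak2 (chr16:91547059-91564007), had 3 kept probes. The representative, ILMN_2784272, was bright on every array, with raw intensities from 9149.5 to 18773. Its level was 13.85 ± 0.20 (SD, n = 5) in control and 13.68 ± 0.22 in LysM-KI cells, a log2 fold change of -0.17 (SE 0.22, 95% interval from -0.65 to 0.30). This was the narrowest spread in the set. The 2 dim probes had larger spreads. ILMN_1258300 gave 6.21, 4.85, 5.32, 5.60 and 6.70 in control and 4.59, 4.73, 6.49, 6.42 and 7.62 in LysM-KI replicates 1 to 5. ILMN_2592709 gave 6.12, 5.07, 5.29, 4.60 and 6.38 in control and 4.62, 4.78, 6.50, 6.61 and 7.79 in LysM-KI cells. On both, LysM-KI replicates 1 and 2 were not detected and replicate 5 was the highest of all arrays. Their log2 fold changes were 0.23 (SE 0.59) and 0.57 (SE 0.61).

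**Figure D3:**
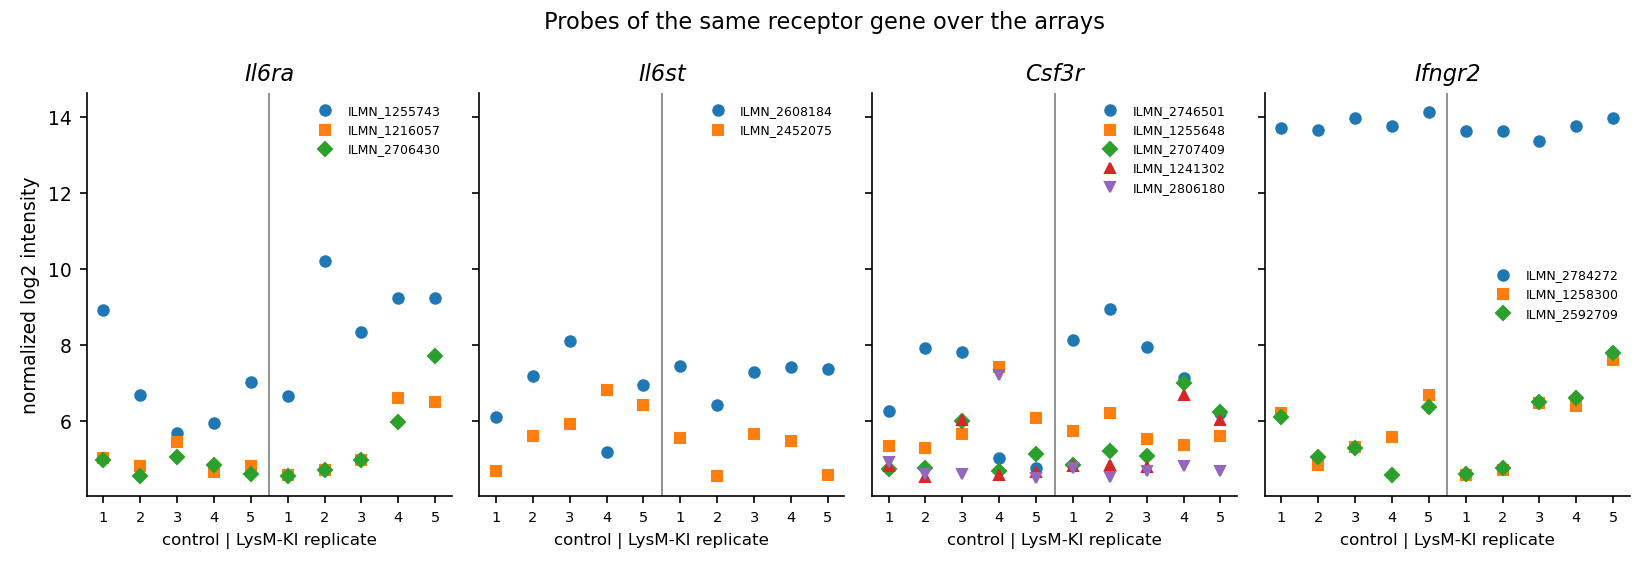
Normalized log2 intensity (vertical axis) of every probe of Il6ra, Il6st, Csf3r and Ifngr2 on the 5 control and 5 LysM-KI arrays (horizontal axis, by replicate). Each marker style is a probe. The 2 dim Ifngr2 probes move together over the arrays, with LysM-KI replicate 5 the highest on each.

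Agreement between kept probes of the same gene was tested over the 10 arrays without regard to group, for 5 pairs. The 2 dim Ifngr2 probes followed each other, with Pearson r = 0.94 (permutation p = 0.00038, adjusted p = 0.0019) and Spearman rho = 0.83 (permutation p = 0.00487, adjusted p = 0.0243). Their deviations from the group means had r = 0.95. Without LysM-KI replicates 1 and 5, the arrays farthest from the median, r was 0.88 (exact permutation p = 0.0147, adjusted p = 0.0733), so over these 8 arrays the adjusted call was lost.

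The other 4 pairs did not pass. The bright Ifngr2 probe had r = 0.37 (rho = 0.51) with ILMN_1258300, with permutation p = 0.293 and 0.132, and r = 0.29 (rho = 0.32) with ILMN_2592709, with permutation p = 0.411 and 0.359. Leaving out control replicate 5 together with replicate 3 of LysM-KI gave r of 0.64 and 0.58. The kept Csf3r probes had r = -0.43 (permutation p = 0.214) and rho = -0.10 (permutation p = 0.788), which turned to r = 0.63 (exact permutation p = 0.0897) without control replicates 4 and 5. The Il6st probes had r = -0.17 (permutation p = 0.649) and rho = -0.05 (permutation p = 0.891), and r = 0.36 (exact permutation p = 0.392) without control replicates 1 and 4. The adjusted p of these 4 pairs over all arrays lay between 0.488 and 0.649 for r and between 0.33 and 0.891 for rho. The sign of the Csf3r and Il6st r thus changed when those pairs of control arrays were left out.

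Set beside all probes, the receptor differences were as follows. With limma p-values adjusted by Benjamini and Hochberg across all 17245 probes tested, 0 of the 11 receptor probes passed an adjusted p of 0.05, and 0% of all probes did. Their adjusted p ran from 0.881 to 0.979. At an unadjusted p under 0.05, 2 receptor probes were higher in LysM-KI cells, those of Il6ra and Ifngr1, and 3.4% of all kept probes were. In the other direction it was 0 receptor probes and 1.94% of all. Of the 7 genes, 5 had a log2 fold change above 0 (Il6ra, Csf3r, Ifngr1, Il6st and Csf2rb) and 2 below it (Csf2ra and Ifngr2), while 53.4% of all kept probes were above 0. Over all 11 kept receptor probes, 7 were above 0 and 4 below. The median over the 7 genes was 0.48, against 0.03 over all kept probes. In 0 of the 11 probes did every LysM-KI array lie above every control array, as 0.574% of all kept probes did, or below every control array, as 0.336% did. Nothing about the set is read from these shares, since this contrast was known when the genes were chosen.

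**Figure D4:**
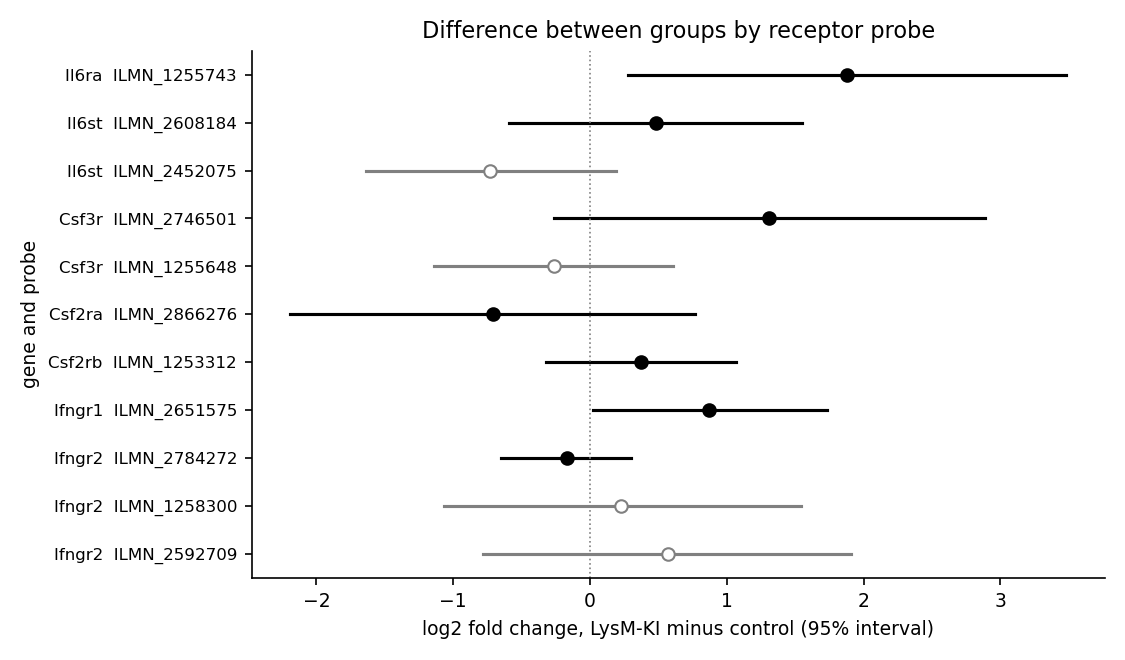
Log2 fold change of LysM-KI minus control (horizontal axis) with its 95% interval from limma for the 11 kept receptor probes. Filled points are the representative probes and open points the other kept probes. The intervals of Il6ra (0.28 to 3.48) and Ifngr1 (0.02 to 1.73) lie above 0 before any adjustment, and the rest hold 0.

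The arrays were also read across the genes. Of the 7 representative probes, control arrays had 2 or 3 above the median of the probe over the 10 arrays, and LysM-KI arrays had 3 to 6. These counts restate the contrast that was known when the genes were chosen. Nothing about the set is read from them, and no such share over all kept probes is given. LysM-KI replicate 3 had the most, with 6. Control replicate 3 held the lowest value of 3 genes, Il6ra, Csf2rb and Ifngr1, together with the highest value of Il6st. Control replicate 4 held the lowest value of Il6st and Csf2ra. Of the 20 probes, control arrays detected 8 to 14 and LysM-KI arrays 8 to 16. LysM-KI replicate 4, which detected the most probes of the whole array, also detected the most receptor probes.

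Markers of other cells were set beside these values. Of 13 granulocyte and monocyte progenitor genes, 8 were measured, and Cebpa was detected on no array. Their mean level was 7.54 to 8.22 in control and 8.22 to 8.62 in LysM-KI arrays, and the median log2 fold change was 0.55. The primary granule gene Mpo was at 0.43 (SE 0.25), Ly86 at 0.85 (SE 0.41), and the granulocyte transcription factor gene Gfi1, the 1 gene of the list at an unadjusted limma p under 0.05, at 0.93 (SE 0.41, adjusted p 0.928). Of the 8 genes, 6 lay above 0, as did 53.4% of all kept probes. The 2 below 0 were Ms4a3 at -0.53 (SE 0.49) and Nkg7 at -0.07 (SE 0.49). The part of this list in the receptor values was not tested. Of 12 mature neutrophil genes, which mark cells that also carry Csf3r, 4 were measured. All 4 lay below 0, while 53.4% of all kept probes lay above 0. Their median log2 fold change was -0.54, with wide errors. S100a9 was at -1.19 (SE 1.09), Camp at -0.58 (SE 0.73), Ltf at -0.50 (SE 0.37) and Cxcr2 at -0.08 (SE 0.69). Their mean level was 5.70 to 8.72 in control and 5.63 to 7.04 in LysM-KI arrays, and Lcn2, Mmp8, Retnlg and Itgam were detected on no array. Of 13 monocyte and macrophage genes only Lyz2 was measured, at 8.17 to 9.69 and 7.77 to 9.52, and Cd14, Fcgr1 and the 3 C1q genes were detected on no array.

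Further marker lists held genes with lower values in LysM-KI arrays. Of 14 stroma and endothelium genes, 3 were measured, and their mean level was 6.13 to 7.24 in control and 5.53 to 5.75 in LysM-KI arrays, so the groups did not overlap. Their median log2 fold change was -1.04. The matrix protein gene Sparc, at -1.40 (SE 0.57), and the PDGF receptor gene Pdgfrb, at -1.04 (SE 0.33), had an unadjusted limma p under 0.05. Each was detected on only 6 arrays, and their LysM-KI means of 5.08 and 5.14 lay close to background. The remaining measured gene, Pecam1, was detected on all 10 arrays and was at -0.13 (SE 0.26), so the gap between the groups came mainly from Sparc and Pdgfrb. Of single kept probes, 0.336% had every LysM-KI array below every control array, and no such share was computed for means of 3 genes. Col1a1, Col3a1 and Kdr were detected on no array. Of 11 B cell and plasma cell genes, 7 were measured, with a mean level of 7.44 to 9.12 and 7.98 to 8.61 and a median log2 fold change of 0.29. Of the 7, 5 lay above 0, as did 53.4% of all kept probes. These were Cd79b at 0.83 (SE 0.43), Ebf1 at 0.59 (SE 0.81), Vpreb1 at 0.47 (SE 0.64), Blnk at 0.29 (SE 0.71) and Igll1 at 0.03 (SE 0.62). The 2 below 0 were Mzb1, a gene of antibody-secreting cells, and the antibody joining chain gene Jchain. Mzb1 was at -1.90 (SE 0.32, limma adjusted p 0.392) and Jchain at -0.77 (SE 0.27, limma adjusted p 0.877), both at an unadjusted p under 0.05. Of 12 erythroid genes, 6 were measured, at 7.24 to 10.73 and 7.10 to 9.54, with a median log2 fold change of -0.77.

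The mean levels of the remaining lists overlapped between the groups. Dendritic cell genes, 9 of 10 measured, were at 7.72 to 8.22 in control and 7.69 to 7.93 in LysM-KI arrays. T and NK cell genes, 3 of 12, were at 6.91 to 8.11 and 6.86 to 7.71. Megakaryocyte genes, 4 of 9, were at 6.23 to 7.79 and 6.64 to 7.33, and mast cell, basophil and eosinophil genes, 6 of 10, were at 7.75 to 9.21 and 7.66 to 8.54. Limma called 0 genes of any marker list after adjustment, and the part of these lists in the receptor values was not tested.

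Other genes of the receptor pathway were taken from lists of receptors, ligands, kinases, inhibitors, adaptors and targets. Of 123 genes, 71 were measured, and limma called 0 higher and 0 lower after adjustment. At an unadjusted p under 0.05 only the interferon-induced GTPase gene Gbp3 was found, at 0.89 (SE 0.40). The median log2 fold change was 0.00, with 36 genes above and 35 below 0. Of the 20 ligands listed, 10 were detected on no array, including the genes of interferon gamma and GM-CSF, and 2 were measured, Il15 at -0.43 (SE 0.44) and Osm at -0.15 (SE 0.59). Il6, Csf3 and Csf1, the genes of further ligands of the set, were detected on at most 3, 2 and 1 arrays.

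Among other receptors, Il27ra, which also signals through gp130, was the only one of 5 listed to be measured, at -0.78 (SE 0.55). Il3ra, a partner of the common beta chain, was detected on no array. The partners of the common gamma chain Il7r and Il4ra were at 0.31 (SE 0.32) and 0.52 (SE 0.34). Of the type I interferon receptor, Ifnar2 was at 0.22 (SE 0.30), and the interleukin-10 receptor genes Il10ra and Il10rb were at 0.79 (SE 0.98) and -0.27 (SE 0.41). Receptors that LSK cells are known for did not pass the test either, with Flt3 at -0.06 (SE 0.22), Kit at 0.42 (SE 0.29), the interleukin-1 receptor gene Il1r1 at -0.09 (SE 0.48) and the TGF-beta receptor gene Tgfbr1 at -0.15 (SE 0.31).

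Of the Janus kinases and STATs, 9 of 11 were measured, 2 above and 7 below 0, with a median of -0.08. Jak1, Jak2 and Tyk2, kinases that receptors of the gp130, common beta chain and interferon families use, were at -0.11 (SE 0.32), -0.18 (SE 0.41) and -0.01 (SE 0.35). Jak3, the kinase of the common gamma chain, was detected on at most 4 arrays and not measured. Stat3, the main factor downstream of gp130 and Csf3r, was at -0.09 (SE 0.22), and Stat5a and Stat5b, which serve the common beta chain, were at -0.08 (SE 0.32) and 0.38 (SE 0.29). Stat6, the interleukin-4 factor, was at -0.28 (SE 0.34). Of the inhibitors, 18 of 23 were measured, with a median of 0.04. A pair that receptor signalling itself induces had wide errors in opposite directions. Socs3, which blocks gp130 and Csf3r, was at -1.25 (SE 0.68, 6.61 ± 1.65 in control and 5.36 ± 0.49 in LysM-KI cells, SD, n = 5). Cish, a STAT5 target, was at 1.41 (SE 0.72, 5.13 ± 0.22 and 6.54 ± 1.81). The inhibitor genes with the highest mean levels were Pias1 at -0.16 (SE 0.28), Ptpn11 at 0.02 (SE 0.23), Pias4 at -0.06 (SE 0.22) and Ptprc at 0.30 (SE 0.28), and Socs1 was detected on at most 2 arrays. Adaptors had a median of -0.03 over 12 genes, with Pik3r1 at 0.22 (SE 0.23), Shc1 at 0.00 (SE 0.24), Sos2 at 0.09 (SE 0.33) and Plcg2 at -0.07 (SE 0.24). Target genes had a median of 0.08 over 15 genes, with Irf1 at -0.17 (SE 0.28), Mcl1 at 0.12 (SE 0.19), Ccnd2 at 0.32 (SE 0.33) and Irf9 at -0.21 (SE 0.61).

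Il6ra had the largest spread over the 10 arrays of the representative probes, an SD of 1.58. The genes whose profile lay closest to it, each centred on its own mean over the 10 arrays, were Ccdc93, Ddx52 and Ncoa4. Their root mean square differences from Il6ra were 0.53, 0.62 and 0.73 on the log2 scale, against a median of 1.60 over all kept probes. They were picked from all named kept probes for this closeness.

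**Figure D5:**
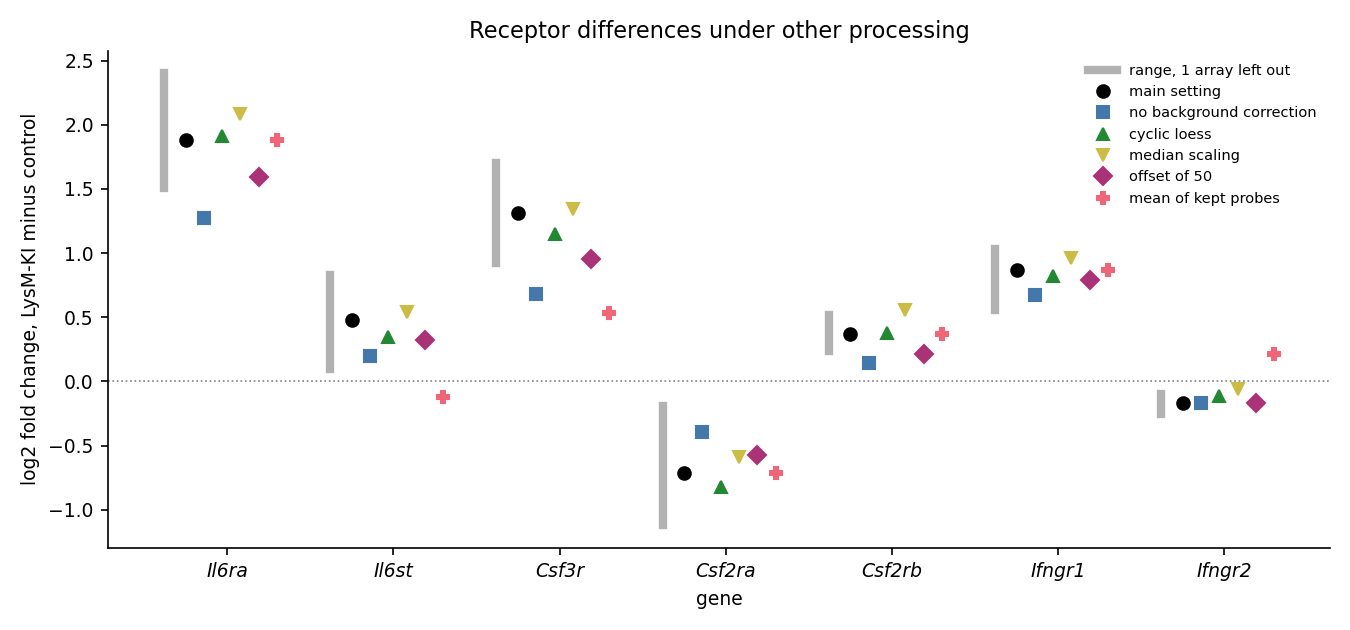
Log2 fold change of LysM-KI minus control (vertical axis) of the 7 receptor genes under 6 settings (markers) and its range with 1 array left out (grey bars). Il6ra runs from 1.27 without background correction to 2.08 with median scaling, and Il6st and Ifngr2 change sign when all kept probes are averaged.

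The size of the differences depended on the background correction and on the probe. Il6ra was at 1.27 without background correction and at 1.51 without LysM-KI replicate 2. Csf3r was at 0.68 without background correction and at 0.92 without control replicate 5. It was at 0.53 when its kept probes were averaged. Ifngr1 ran from 0.67 to 0.96 under settings that kept every array or left out 2, and from 0.56 to 1.03 with 1 array left out. Averaging all kept probes turned Il6st to -0.12 and Ifngr2 to 0.21. Median scaling moved the median of all kept probes from 0.03 to 0.13, beside a receptor median of 0.56.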

How the data were processed

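RNA of sorted LSK cells from 10 individual mice was hybridised to Illumina mouse arrays; per the labels' protocols it was extracted with Trizol, cleaned with DNase I treatment and amplified with the WT-Ovation Pico kit, and the scanner software is not given in the sources used here. Per probe, the deposited intensity is linear and holds its background, with array medians from 102 to 140. Beside it the authors deposited a fraction from 0 to 1 that rises with the intensity of its own array (rank correlation at least 0.99, at most 0.851 with another array), so 1 minus it was used as detection p. The authors' processed log2 values equal log2 of quantile-normalized intensities, centred on each probe's median, within 0.0131; they served as an alternative only, and 0 columns belonged to other samples.

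Intensities were normalized with neqc of limma 3.58.1 in R 4.3.3 (normexp with offset 16, quantile, log2). The offset pulls fold changes of dim probes toward 0, while the background subtraction widens them. Csf3r was at 1.31 here, at 0.95 with an offset of 50 and at 0.68 without background correction. Kept probes were detected (p under 0.05) on at least 5 arrays. Limma's empirical Bayes test ran on all of them, two-sided, with Benjamini-Hochberg adjustment; SEs and 95% intervals are the model's, with 11.1 degrees of freedom. Probe pairs were tested by permutation with 100000 resamples, or over all orders with 8 arrays. Older symbols were replaced by way of their Entrez numbers, and RefSeq held 99.7% of these.

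The fit was tested on simulated data. Members, lists and rules were chosen with earlier results of these data known. Named are all members and their probes, pathway genes past the threshold or among the 4 with the highest means in their list, Janus kinases, STATs, Socs1, Socs3, Cish and Csf2rb2 as signalling genes fixed by name, and the 3 genes most like the most variable member. Gbp3, Spi1 and the cell type markers named lie outside that rule and were chosen after their values were seen. The labels describe individual mice, with no batch given; the number of arrays limits the precision. Replicate numbers occur in both groups, but deviations of same-numbered arrays correlated at -0.0305 to 0.0605, so arrays were not paired.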

Additional observations from a re-analysis of the deposited data

Results flagged for a closer look

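Within each group of 5 arrays, the highest or lowest array was set against the rest for all 20 receptor probes. In 6 of 40 groups an array lay apart by more than Dixon's critical value of 0.71 of the range. Chance gives about 1 in 20 only for independent, normally distributed groups. These groups share arrays and many of their values were not detected, so no excess over chance is read from the count. Of the 6, 5 concern probes that were detected on at most 3 arrays.

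For Il6st ILMN_2608184, LysM-KI replicate 2 was the lowest at 6.44, with the other 4 arrays between 7.30 and 7.46. For Csf3r, control replicate 3 was the highest on ILMN_1241302 at 6.04, with the others between 4.54 and 4.84, and control replicate 4 on ILMN_2806180 at 7.23, with the others between 4.52 and 4.93. For Csf2rb ILMN_2688262, LysM-KI replicate 2 was the highest at 5.99, with the others between 4.80 and 5.01. For Csf1r ILMN_1230485, control replicate 3 was the highest of its group at 5.42, with the others between 4.59 and 4.68, and LysM-KI replicate 2 of its group at 5.26, a value not detected, with the others between 4.51 and 4.69. The arrays concerned were control replicates 3 and 4 and LysM-KI replicate 2, the last 2 of which stood apart over all probes.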

How the results depend on the processing

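Under the alternatives run, limma called 0 probes and 0 receptor genes after adjustment, in the replicate block fit too, and 0 genes of each pathway list measured. The count at an unadjusted p under 0.05, 922, became 1848 with no filter on dim probes and 531 with probes detected on all 10 arrays, since more or fewer probes were tested, and ran from 743 to 1224 with 1 array left out. Its share higher in LysM-KI, 63.7%, was 48.9% with cyclic loess and 81.3% with median scaling. The replicate block gave 980 such probes and left the receptor median at 0.48, and 1 of 5 control arrays correlated best with the LysM-KI array of its own number.

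The median over the receptor genes ran from 0.20 (without background correction) to 0.59 and, with 1 array left out, from 0.33 to 0.67. Without control replicate 4 and LysM-KI replicate 2 it was 0.51. The count of genes above 0 was 2 of 4 with probes detected on all 10 arrays, where another probe stood for Csf3r, at -0.26. Averaging kept probes gave -0.12 for Il6st and 0.21 for Ifngr2. Left-out arrays moved Il6ra from 1.51 to 2.40, Il6st from 0.10 to 0.83, Csf3r from 0.92 to 1.70, Csf2ra from -1.12 to -0.19, Csf2rb from 0.24 to 0.52, Ifngr1 from 0.56 to 1.03 and Ifngr2 from -0.25 to -0.10. The pathway median was -0.06 with cyclic loess, -0.01 with an offset of 50, -0.05 with probes detected on all 10 arrays, -0.03 with array weights, -0.01 without the Xist-high arrays and -0.05 to 0.05 with 1 array left out. Without the 2 farthest arrays r was 0.63 for Csf3r, 0.36 for Il6st and 0.88 (no longer past the threshold) for the dim Ifngr2 probes. At a detection p under 0.01, 9 receptor probes were kept. Except where the probes or arrays tested changed, the cause was not tested.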
